A study of Homo sapiens with 5 samples.

Results

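The nuclear-encoded subunits of the mitochondrial respiratory chain and ATP synthase were examined in HCT116 cells, an established human colorectal carcinoma line, with and without LT4. Genes were chosen by symbol alone, from the systematic names of complex I (NDUF), complex II (SDH), complex III (UQCR and CYC1), complex IV (COX4 to COX8) and complex V (ATP5), leaving out pseudogenes and the ATP synthase inhibitor ATP5IF1. This gave 87 of the 60623 genes in the count table, with 38 in complex I, 4 in complex II, 9 in complex III, 17 in complex IV and 19 in complex V. Of these, 79 had enough counts to enter the test of LT4 against control, namely all members of complexes I, II and III, 11 of complex IV and 17 of complex V.

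The respiratory chain passes electrons from NADH (complex I) and succinate (complex II) through ubiquinone to complex III, cytochrome c and complex IV, which reduces oxygen. Complexes I, III and IV pump protons across the inner mitochondrial membrane, and complex V uses the gradient to make ATP. Most subunits are encoded in the nucleus, made on cytosolic ribosomes and imported, while a small core of complexes I, III, IV and V is encoded by mitochondrial DNA and has to be matched with them during assembly. Many promoters of the nuclear genes are known to carry sites for nuclear respiratory factor 1 (NRF1) and for GA-binding protein, a factor of the ETS family.

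Polyadenylated RNA was sequenced from 3 control libraries (controls 1, 2 and 3) and from LT4 replicates 1 and 3. The word replicate here follows only the number in an LT4 title. In the column headings the controls share a name, while LT4 libraries 1 and 3 are named apart. Whether they repeat the same condition is not established, and pooling them is an assumption of the main comparison. All libraries were from HCT116 cells with no other genotype or agent named, and the labels gave neither a dose, a duration nor what the controls received. The labels did not say whether the libraries came from separate cultures, so the tests measured only the spread between these libraries. The comparison asked how LT4 changed the transcriptome of these cells.

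Assigned counts totalled 12296916, 11954776 and 11653484 in controls 1, 2 and 3. The totals for LT4 were 9840467 (replicate 1) and 2281912 (replicate 3). Mitochondrially encoded genes took 5.73% to 6.64% of counts in the other libraries and 9.92% in LT4 replicate 3, which therefore stood apart in depth and in RNA composition. The 13 protein subunits among them took 4.8%, 4.15% and 4.71% of counts in controls 1, 2 and 3. In LT4 replicates 1 and 3 these subunits took 4.74% and 4.09%, so they were not raised in LT4 replicate 3. A count of 0 allowed up to 0.257 CPM (counts scaled to a common library total, here for 3 counts) in the controls. For LT4 replicate 1 this limit was 0.305 CPM and for LT4 replicate 3 it was 1.31 CPM, and these limits cover counting error only. The cell line label was set beside 9 colorectal epithelial markers, in TPM (a level scaled by gene length and by library). Their summed TPM was 9030 to 10100 in controls and 7910 to 9830 with LT4. Most of it came from KRT8, KRT18 and KRT19, at 2290 to 3770 TPM each. EPCAM, CDH1 and CDX2 were at 18.0 to 137 TPM and KRT20 at 1.96 to 7.25. VIL1 and CDX1 were at no more than 0.322 TPM in any library. Summed fibroblast markers were at 4.62 to 5.33 TPM in controls and 2.53 to 4.29 with LT4, with 1 of 6 at 0 in every library. Summed leukocyte markers were at no more than 0.538 TPM in any library (2 of 5 at 0), hepatocyte markers at no more than 0.894 (2 of 4 at 0), and striated muscle markers at no more than 1.32 (1 of 4 at 0).

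Promoter sequence was taken from RefSeq (GRCh38.p14), which gave a window for 69 of the 87 genes. The 4 stretches below are shown because they precede a gene of complexes I, III, IV and V and hold an NRF1 or ETS match. NDUFB4 had the smallest p of complex I, UQCR11 the lowest log2 fold change of complex III, and ATP5PD was among the genes called lower in LT4 replicate 1. Each is written 5′ to 3′ on the strand of the gene, holds no exon of GENCODE 29, and has the motif letters in capitals.
NDUFB4, complex I, chr3:120596189-120596308, plus strand, NRF1 motif, 147 to 28 bases before the RefSeq start: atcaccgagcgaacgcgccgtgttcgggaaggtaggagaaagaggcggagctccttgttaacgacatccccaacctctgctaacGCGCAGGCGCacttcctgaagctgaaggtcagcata
UQCR11, complex III, chr19:1605491-1605610, minus strand, an ETS motif on either strand, 148 to 29 bases before the start: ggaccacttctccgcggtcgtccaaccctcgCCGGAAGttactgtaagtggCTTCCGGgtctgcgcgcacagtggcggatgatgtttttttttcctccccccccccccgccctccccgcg
COX5B, complex IV, chr2:97645920-97646039, plus strand, ETS motif, 142 to 23 bases before the start: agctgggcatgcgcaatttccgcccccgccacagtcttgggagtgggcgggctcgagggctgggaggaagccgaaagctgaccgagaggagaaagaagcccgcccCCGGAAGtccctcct
ATP5PD, complex V, chr17:75046986-75047105, minus strand, ETS motif, 136 to 17 bases before the start: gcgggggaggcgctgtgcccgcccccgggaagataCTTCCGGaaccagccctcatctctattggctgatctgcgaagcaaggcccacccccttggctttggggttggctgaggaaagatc

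Motifs were searched on both strands in the 250 bases before each start, counting overlapping matches. The NRF1 motif (GCGC, any base, then TGCGC without a gap) was present for 15 of 69 members (21.7%), against 10.8% of 10245 genes tested and 5.53% of 27305 windows in all. The ETS motif CCGGAAG was present for 17 members (24.6%), against 16.3% of genes tested and 8.82% of all windows. The YY1 motif AAGATGGCG was present for 1 member (1.45%), against 1.11% of genes tested. Among tested members with a window, the median log2 fold change of LT4 against control was -0.30 for the 14 with the NRF1 motif and -0.13 for the 51 without it. For the ETS motif the medians were -0.12 with it (17 genes) and -0.17 without it (48 genes). The differences between these medians were not tested. Genes with the NRF1 motif were spread unevenly over the complexes, and no tested gene of complex IV with a window was among them. A match is a run of letters in a window and not a bound site.

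In control cells the respiratory chain was an abundant class of transcripts, led in TPM by different kinds of subunit in each complex. The 87 genes together held 15300 ± 365 TPM (SD, n = 3) and 1.11% to 1.20% of counts. Summed levels were 5250 ± 208 TPM for complex I, 3880 ± 72.0 for complex V, 3220 ± 184 for complex IV, 2820 ± 55.5 for complex III and 108 ± 4.11 for complex II (SD, n = 3 each). The highest member was ATP5F1B, the catalytic beta subunit of ATP synthase, at 1530 ± 127 TPM. COX8A, a small structural subunit, led complex IV at 1240 ± 32.3 TPM, and NDUFS5, an accessory subunit of the intermembrane space side, led complex I at 1050 ± 7.36 TPM. CYC1, the haem-bearing cytochrome c1, led complex III at 955 ± 53.7 TPM. SDHB, the iron-sulphur subunit of succinate dehydrogenase, led complex II at 49.6 ± 7.05 TPM.

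**Figure D1:**
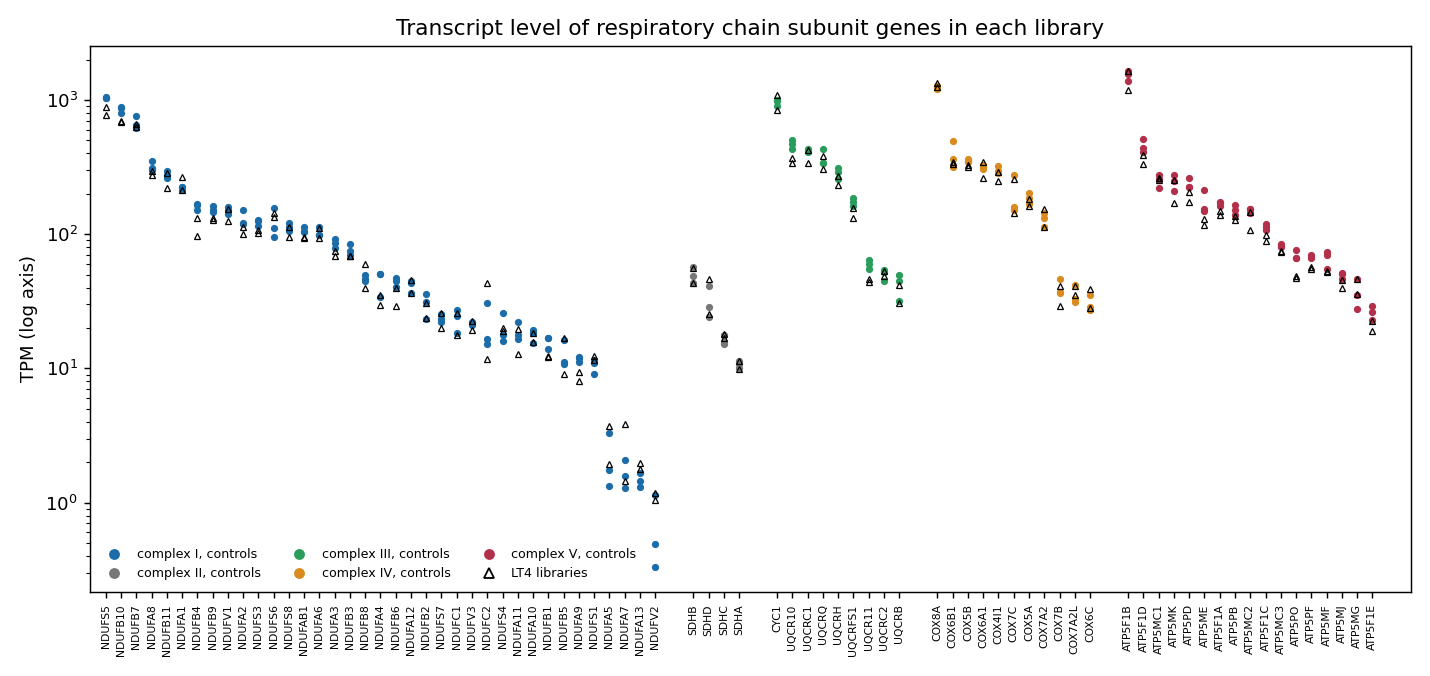
TPM (log axis) of tested genes in each library, ordered within each complex by the control mean. Filled points are the 3 controls, open triangles the LT4 libraries. Most complexes span over an order of magnitude from their highest to their lowest member, and the lowest points are NDUFV2, NDUFA13 and NDUFA7.

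Within a complex, subunits that are present in fixed ratios in the protein were listed at very different TPM. Because TPM is scaled by gene length, its order depends on the length used. In controls COX4I1 had a mean of 553 CPM against 233 for COX8A, but 301 against 1240 TPM. Their annotated exons cover 4792 and 507 bases. Which length fits the transcripts of these cells was not tested. In complex I the median member was at 46.0 TPM. The 3 genes of the c-ring, which encode the same mature subunit, were at 251 ± 29.6 TPM (ATP5MC1), 150 ± 6.28 (ATP5MC2) and 81.8 ± 1.83 (ATP5MC3). Their TPM did not overlap between the genes in the controls. Mean control CPM, which is not scaled by length, was 251, 229 and 212 for the same genes. Their annotated exons cover 2615, 3991 and 6780 bases. In TPM the 4 succinate dehydrogenase genes ran from SDHB through SDHD (31.2 ± 8.65 TPM), a membrane anchor, and SDHC (16.2 ± 1.23), the other anchor, to SDHA (10.7 ± 0.657), the flavoprotein that oxidises succinate. In mean control CPM the order differed, with SDHC at 87.6, SDHB at 46.6, SDHA at 35.7 and SDHD at 33.3. The annotated exons of SDHC, SDHB, SDHA and SDHD cover 14160, 2462, 8383 and 2838 bases.

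Complex I subunits NDUFV2, NDUFA13 and NDUFA7 were listed near 1 TPM. NDUFV2, an iron-sulphur protein of the NADH-oxidising module, had 14, 4 and 6 counts in the controls and 10 and 3 in the LT4 libraries, a control mean of 0.653 TPM. NDUFA13 was at 1.48 TPM and NDUFA7 at 1.65 TPM. In GENCODE 29 each shares exon sequence on its own strand with another gene, covering 28.4% of exon bases for NDUFV2, 16.1% for NDUFA13 and 32.3% for NDUFA7. Those partners held 0, 18 and 0 counts over the 5 libraries. NDUFA13 also shares 4.8% of its exon bases on the same strand with YJEFN3, which held 129 counts. Such sharing was also found at high levels, as for COX8A (34.5% of exon bases, 1240 TPM in controls). How reads over such shared sequence were treated is not given in the sources used here. The 1 NDUFV2 pseudogene held 194 counts against 37 for the gene. Their part in the low counts was not tested, and the levels and fold changes of these 3 genes are uncertain. Pseudogene copies otherwise held few reads, 1703 over 189 copies of 50 members against 536910 for the members. Copies exceeded 5% of the gene's counts in NDUFV2, SDHA (30.4%), COX6A1 (6.89%) and NDUFA5 (5.12%).

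Complex IV has subunits with a ubiquitous and a tissue-restricted form, and the ubiquitous form held nearly all reads. COX6A2 and COX7A1, the muscle forms, and COX7B2, a testis form, had a count of 0 in every library. COX4I2, the lung form, had 1 count in control 1 and 1 in LT4 replicate 1. COX6B2, a testis form, had 3, 5 and 4 counts in the controls and 2 and 0 with LT4, and COX8C, another testis form, had 2 counts in control 2. The ubiquitous partners COX4I1, COX6A1, COX6B1, COX7A2, COX7B and COX8A were at 301, 317, 392, 129, 40.1 and 1240 TPM in controls. The other untested genes, ATP5MGL and the readthrough gene ATP5MF-PTCD1, had at most 1 count in any library.

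With LT4, no member passed the test. By edgeR's quasi-likelihood test with Benjamini-Hochberg adjustment over 13833 genes, 0 of 79 members were called at an adjusted p under 0.05, against 0.137% of all genes tested (19 genes). The smallest adjusted p of a member was 0.143. Called members also numbered 0 by DESeq2 (0.831% of genes called) and by limma voom (0.202%). At an unadjusted p under 0.05, 12 members were lower and 0 higher, against 5.28% of genes tested that were lower and 8.58% that were higher. Standard errors of the members' log2 fold changes ran from 0.12 to 0.85 with a median of 0.16, and the 95% interval lay within 1 log2 unit of 0 for 73 members. In RNA of a whole culture, fewer cells expressing a gene and less RNA per cell cannot be told apart.

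The members nevertheless lay mostly to the lower side. The log2 fold change was below 0 for 60 of 79 members, against 50.4% of all genes tested, with a median of -0.16 against 0.00 for all genes. By complex the median was -0.28 for V, -0.21 for III, -0.15 for I, -0.08 for IV and 0.03 for II. Both LT4 libraries lay below all controls for 23 of the 79, against 16.5% of all genes tested, and above all controls for 1, against 17.3%. The 23 were 12 of 38 in complex I, 3 of 9 in complex III, 8 of 17 in complex V and 0 in complexes II and IV. The summed level of the 87 genes was 14900, 15400 and 15500 TPM in controls 1, 2 and 3, and 13700 and 13900 TPM in LT4 replicates 1 and 3, with no overlap. As a share of counts they held 1.11%, 1.15% and 1.20% in the controls and 0.993% and 1.12% in the LT4 libraries, and LT4 replicate 3 lay among the controls. Tested protein-coding genes summed to 786000 TPM in LT4 replicate 3, 916000 TPM in LT4 replicate 1 and a mean of 892000 TPM in the controls, and the part of this difference in the summed levels was not tested.

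**Figure D2:**
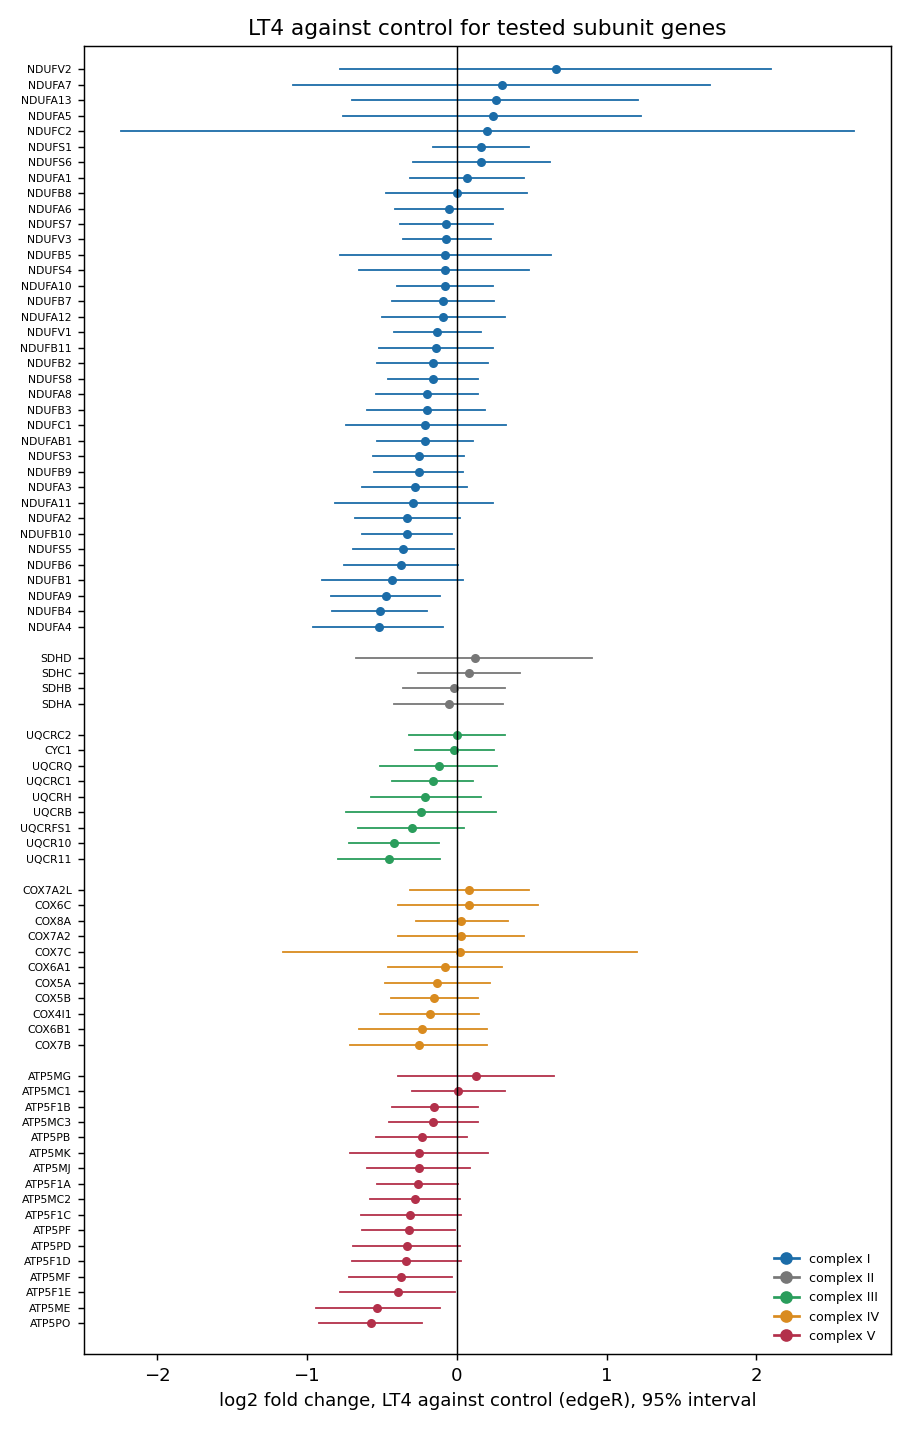
Log2 fold change of LT4 against control for tested genes by complex, as points with 95% intervals from edgeR. Most points of complexes I, III and V lie left of 0, and the widest interval is that of NDUFC2, from -2.24 to 2.65.

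Complex V, the ATP synthase, had the largest share of members below the controls. ATP5PO, the stalk subunit that confers oligomycin sensitivity, was at 77.2, 80.5 and 94.5 CPM (here scaled with TMM factors) in the controls and 51.8 and 62.7 CPM with LT4. Both LT4 values were below all controls, with a log2 fold change of -0.57 (SE 0.16, edgeR adjusted p = 0.143). Fitted with the replicate number as a block, ATP5PO passed (-0.58, edgeR adjusted p = 0.0144), where 0.802% of genes were called lower. Only controls with an LT4 library of the same number inform that fit on LT4. ATP5PO also passed with no filter on low counts (-0.61, edgeR adjusted p = 0.0383), where 0.334% were called lower. In GENCODE 29, 19.6% of its exon bases are shared on the same strand with a gene listed at 0 counts. ATP5F1A, the alpha subunit, was at 690, 737 and 692 CPM in controls and 560 and 620 CPM with LT4 (log2 fold change -0.26, adjusted p = 0.385). ATP5F1B was at 1300, 1410 and 1220 CPM against 1280 and 1090 CPM, and the groups overlapped (-0.15, adjusted p = 0.648). The differences between these subunits' fold changes were not tested.

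The c-ring genes gave differing values, and none passed the test. ATP5MC2 was at 211, 236 and 240 CPM in controls and 202 and 174 CPM with LT4, below all controls (log2 fold change -0.28, edgeR adjusted p = 0.396). ATP5MC1 was at 250, 278 and 223 CPM against 236 and 270 CPM (0.01, 95% interval -0.30 to 0.32), and ATP5MC3 at 201, 219 and 215 CPM against 176 and 205 CPM (-0.16, interval -0.45 to 0.14). The groups overlapped for both. ATP5MG, the g subunit of the membrane part, had the highest log2 fold change of complex V, 0.13. It was at 38.1, 31.3 and 52.5 CPM in controls and 36.5 and 55.7 CPM with LT4, a spread within each group wider than the difference between them.

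In complex III the lowest log2 fold changes were those of small accessory subunits, and their difference from the catalytic ones was not tested. UQCR10 was at 169, 162 and 190 CPM in controls and 125 and 134 CPM with LT4 (log2 fold change -0.42, SE 0.14, edgeR adjusted p = 0.219). UQCR11 was at 47.6, 45.5 and 53.2 CPM against 32.6 and 40.5 CPM (-0.45, SE 0.16, adjusted p = 0.238). The groups did not overlap for either gene. Of the electron-carrying subunits, CYC1 was at 709, 752 and 684 CPM against 735 and 678 CPM (-0.02, 95% interval -0.28 to 0.25), and UQCRFS1, the Rieske iron-sulphur protein, at 186, 207 and 224 CPM against 140 and 196 CPM (-0.30, adjusted p = 0.435). The groups overlapped for both. UQCRC1, a core structural protein, was at 496, 532 and 508 CPM against 473 and 441 CPM (-0.16), both below all controls, and its partner UQCRC2 overlapped, at 88.1, 95.8 and 79.9 CPM against 84.7 and 91.8 CPM (0.00).

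In complex I the lowest log2 fold changes were in accessory subunits. NDUFB4, a subunit of the membrane arm, was at 113, 122 and 111 CPM in controls and 86.6 and 74.0 CPM with LT4, with no overlap (log2 fold change -0.51, SE 0.15, edgeR adjusted p = 0.151). NDUFA4, named for complex I and since assigned to complex IV, was at 64.5, 67.2 and 46.1 CPM against 35.4 and 49.6 CPM, with overlap through control 3 (-0.52, adjusted p = 0.272). NDUFS5 was at 211, 220 and 225 CPM against 146 and 198 CPM, with no overlap (-0.36, adjusted p = 0.325).

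The subunits that carry the flavin and iron-sulphur clusters of complex I gave small and mixed differences. NDUFV1, which binds NADH, was at 264, 309 and 299 CPM in controls and 271 and 259 CPM with LT4 (log2 fold change -0.13). NDUFS1, the large iron-sulphur protein, was at 51.9, 51.0 and 43.0 CPM against 52.4 and 57.0 CPM (0.16, 95% interval -0.16 to 0.48), and was the only tested member with both LT4 libraries above all controls. NDUFS7 was at 64.5, 73.6 and 64.9 CPM against 67.3 and 60.5 CPM (-0.07), overlapping, and NDUFS8, at 178, 212 and 202 CPM against 177 and 175 CPM (-0.16), lay just below. The highest log2 fold change of the complex, 0.66, was that of NDUFV2, with an SE of 0.67 at the low counts given above.

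No tested member of complexes II and IV had both LT4 libraries on the same side of all controls. SDHA was at 34.7, 38.3 and 34.2 CPM in controls and 30.1 and 40.9 CPM with LT4 (log2 fold change -0.05), and SDHB at 43.9, 54.3 and 41.6 CPM against 47.8 and 43.5 CPM (-0.02). SDHC was at 82.7, 83.0 and 97.0 CPM against 82.2 and 105 CPM (0.08), and SDHD at 29.4, 25.9 and 44.4 CPM against 24.6 and 53.1 CPM (0.12). In each of these 4 genes 1 LT4 library or both lay within the controls' range or on opposite sides of it. COX4I1, a subunit close to the catalytic core of complex IV, was at 509, 592 and 557 CPM against 413 and 566 CPM (-0.18), and COX5A at 90.9, 104 and 87.3 CPM against 74.7 and 99.6 CPM (-0.13). COX8A was at 229, 229 and 243 CPM against 212 and 268 CPM (0.03), 1 library on either side of the controls.

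In the other named complex IV genes LT4 replicate 1 was again the lower LT4 library, lying on the other side of the controls from LT4 replicate 3 for COX6A1 and COX7A2. COX6A1 was at 152, 167 and 167 CPM in controls and 121 and 190 CPM with LT4 (log2 fold change -0.08), and COX6B1 at 160, 191 and 265 CPM against 159 and 194 CPM (-0.23). COX7B had the lowest value of the complex (-0.25), with 40.9, 43.5 and 54.6 CPM against 30.8 and 50.9 CPM. COX7A2 was at 92.7, 84.7 and 107 CPM against 75.3 and 122 CPM (0.03), and COX7A2L, which takes part in forming supercomplexes with complex III, at 67.8, 67.9 and 90.8 CPM against 68.3 and 94.0 CPM (0.08).

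The LT4 libraries differed from each other in these genes. Each was set against the same 3 controls, so the comparisons share their controls, and each assumes that a lone library varies like the controls. LT4 replicate 1 alone had a log2 fold change below 0 for 74 of 79 members, against 50.8% of genes, with a median of -0.33, and 12 members were called lower and 0 higher (edgeR, adjusted p under 0.05), against 1.23% of genes called lower and 2.47% called higher. LT4 replicate 3 alone had 43 of 79 members below 0, against 50.3% of genes, with a median of -0.05, and 1 member called lower and 0 higher, against 1.58% of genes called lower and 2.54% called higher. The difference between the LT4 libraries was not tested. With LT4 replicate 1 the medians were -0.32, -0.17, -0.44, -0.33 and -0.46 for complexes I to V, and with LT4 replicate 3 they were -0.06, 0.23, -0.07, 0.20 and -0.12.

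**Figure D3:**
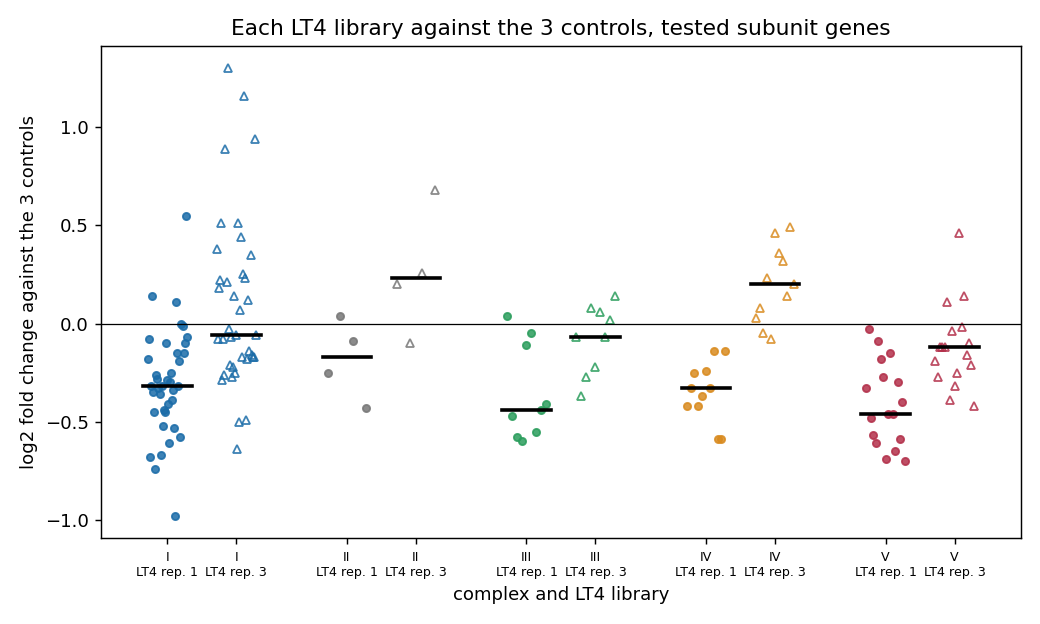
Log2 fold change of each tested gene for LT4 replicate 1 (filled circles) and LT4 replicate 3 (open triangles), each against the 3 controls, by complex. Black bars are medians, which lie below 0 for replicate 1 in every complex and above 0 for replicate 3 in complexes II and IV.

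Of the 12 members called lower in LT4 replicate 1, 6 were of complex V. They were ATP5PO (log2 fold change -0.70, edgeR adjusted p = 0.00809), the delta and epsilon subunits of the central stalk ATP5F1D (-0.57) and ATP5F1E (-0.61), the peripheral stalk subunit ATP5PD (-0.59), and the membrane subunits ATP5ME (-0.69) and ATP5MK (-0.65). Complex I gave NDUFA4 (-0.74), NDUFA11 (-0.68), NDUFA9 (-0.67) and NDUFS5 (-0.58), and complex III gave UQCR11 (-0.58) and UQCRFS1 (-0.55). In LT4 replicate 3 the same genes had log2 fold changes from -0.42 (ATP5PO) to 0.18 (NDUFA11), and the member called lower was NDUFB4 (-0.64, adjusted p = 0.0264). The authors' deposited table, which also sets each LT4 library against the controls, listed 14 of 79 members lower and 0 higher for LT4 replicate 1, against 1.65% lower and 4.44% higher of its 14970 genes. For LT4 replicate 3 the authors' deposited table listed NDUFB4 as lower (log2 fold change -0.66) and NDUFC2 as higher (1.14), against 1.53% lower and 3.31% higher.

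Some members varied within the groups by more than any difference between them. NDUFC2, a membrane-arm subunit, was at 13.0, 14.7 and 27.5 CPM in controls and at 9.30 and 40.9 CPM with LT4. The authors' log2 fold changes for NDUFC2 had opposite signs, -0.96 for LT4 replicate 1 and 1.14 for LT4 replicate 3. COX7C was at 117, 115 and 214 CPM against 98.2 and 208 CPM. NDUFA5 was at 6.17, 4.86 and 12.2 CPM against 6.43 and 14.4 CPM. In each, control 3 was the highest control and LT4 replicate 3 the higher LT4 library, and the same held for SDHD, ATP5MG and NDUFB5 (24.0, 24.3 and 37.2 CPM against 18.6 and 40.5 CPM). These 6 members exceeded 0.5 log2 units both for control 3 over the mean of controls 1 and 2 and for LT4 replicate 3 over LT4 replicate 1 (7.59% of 79, against 3.33% of all genes tested).

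**Figure D4:**
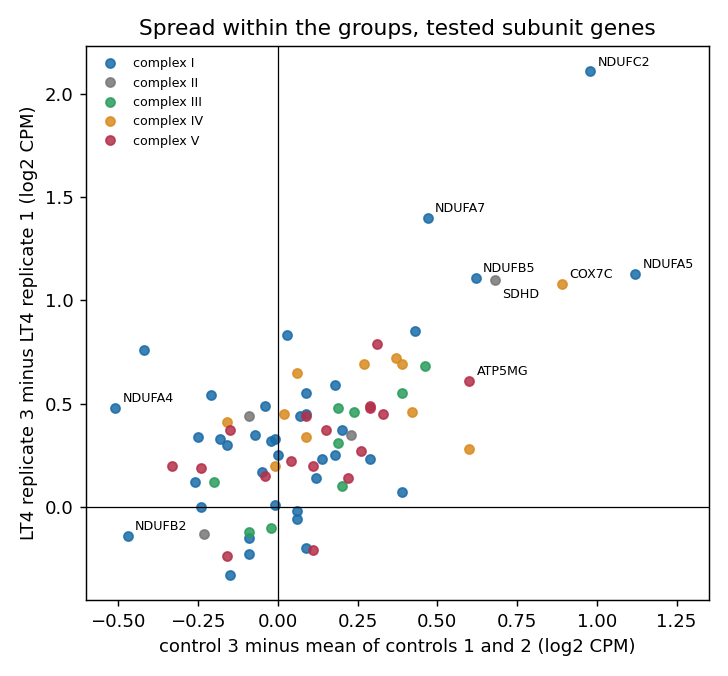
Difference of control 3 from the mean of controls 1 and 2 (x axis, log2 CPM) against the difference of LT4 replicate 3 from LT4 replicate 1 (y axis, log2 CPM) for each tested gene, coloured by complex. The genes at the upper right, NDUFC2, NDUFA5, COX7C, SDHD and NDUFB5, were high in both replicate 3 libraries.

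Across the 79 members, the control difference and the LT4 difference had a Pearson correlation of 0.639, against 0.212 across all 13833 genes, 0.296 across 80 cytosolic ribosomal protein genes and 0.290 across 74 mitochondrial ribosomal protein genes. For control 1 and LT4 replicate 1, each as a difference from its group mean, the correlations were 0.333, 0.207, 0.227 and 0.391 in the same order. There the mitochondrial ribosomal protein genes had the highest of these values. The points are genes measured in the same 5 libraries and share each library's depth, and the correlations are given as a description. What the replicate 3 libraries share was not tested.

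**Figure D5:**
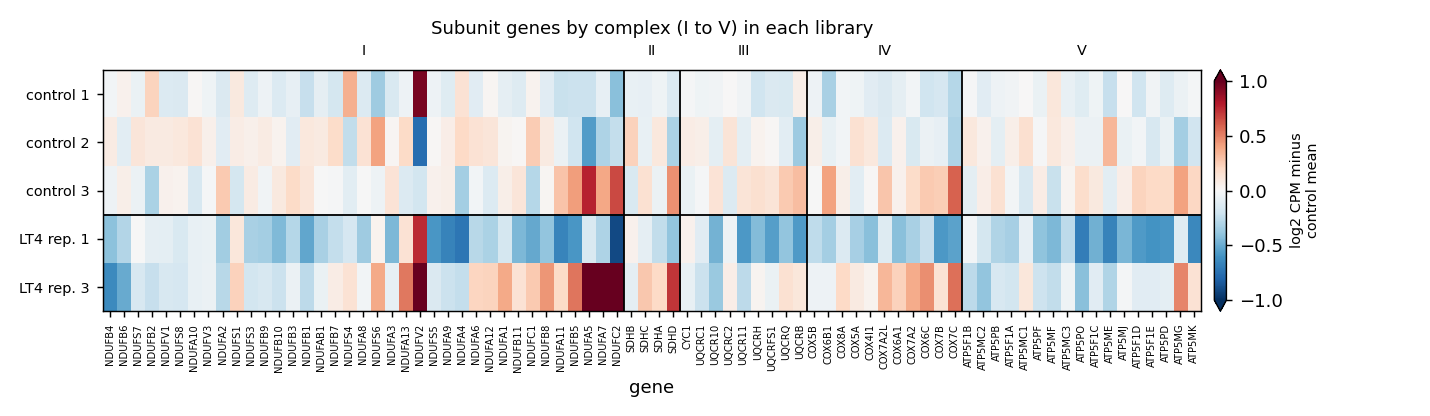
Log2 CPM of tested genes minus the control mean of each, by library (rows) and complex (columns, ordered within a complex by the difference between the LT4 libraries). Blue is below and red above the control mean. The row of LT4 replicate 1 is mostly blue, and that of LT4 replicate 3 holds both colours.

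Other nuclear gene families of mostly short, abundant transcripts lay on the same side. The cytosolic ribosomal proteins had a median log2 fold change of -0.14, with 68 of 80 below 0. Both LT4 libraries lay below all controls for 20 of the 80, against 16.5% of all genes tested. The mitochondrial ribosomal proteins had a median of -0.18, with 63 of 74 below 0 and 26 below all controls. In LT4 replicate 1 alone their medians were -0.29 and -0.29, and in LT4 replicate 3 alone -0.03 and -0.04, beside -0.33 and -0.05 for the respiratory chain members. The median exon length was 2475 bases for the members and 4712 for all genes tested, and the median GC content was 47.6% against 49.3%. With each library's trend on gene length removed, the members' median was -0.15, and with the trend on GC content removed it was -0.17.

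The mitochondrially encoded subunits, which pair with the nuclear ones in complexes I, III, IV and V, were not called in the main comparison either. Their median log2 fold change was -0.07, with 9 of 13 below 0 and 0 called by edgeR. At an unadjusted p under 0.05 (edgeR), 4 of the 13 were lower, against 5.28% of all genes tested. DESeq2 called 3 lower (MT-ND1, MT-ND2 and MT-ND6) and limma voom 0. MT-ND1 and MT-ND2 were called lower in each LT4 library alone (edgeR), and MT-ND4L (log2 fold change 0.63) and MT-ATP8 (0.49) were called higher in LT4 replicate 1 alone. MT-ND2, a core subunit of complex I, was at 2990, 2480 and 2860 CPM in controls and 1920 and 1750 CPM with LT4, with no overlap (-0.60, SE 0.13, edgeR adjusted p = 0.0962). MT-ND6 had the lowest log2 fold change of the 13, -1.3 (SE 0.28, edgeR adjusted p = 0.109). It was at 128, 93.9 and 200 CPM in controls and 57.3 and 57.0 CPM with LT4. Summed mitochondrially encoded TPM per nuclear-encoded TPM was 10.6, 8.87 and 9.88 in the controls and 11.9 and 9.16 in LT4 replicates 1 and 3, with LT4 replicate 1 above the controls and LT4 replicate 3 among them.

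Genes that build, regulate or feed the chain gave no called gene in the main comparison. In single-library comparisons by edgeR, the complex I assembly factors NDUFAF2 (log2 fold change -1.05) and NDUFAF8 (-0.55) and the citric acid cycle gene FH (-0.55) were called lower in LT4 replicate 1. GABPB2, a subunit of GA-binding protein (1.17), and DLD, the dihydrolipoamide dehydrogenase shared by several complexes (0.66), were called higher in LT4 replicate 3. Of 57 assembly factors, 3 were lower at an unadjusted p under 0.05 (edgeR), against 5.28% of all genes tested. By edgeR 0 of the assembly factors were called, and their median log2 fold change was -0.12. The smallest p among them was that of TMEM186, a complex I assembly factor (-0.44, adjusted p = 0.280). Of 14 tested regulators 0 were called, with a median of 0.11. The smallest p was that of LRPPRC, which stabilises mitochondrial mRNAs, at 72.3, 61.5 and 64.7 CPM in controls and 88.1 and 96.6 CPM with LT4 (0.47, SE 0.14, adjusted p = 0.175). NRF1 had a log2 fold change of -0.21 and TFAM, which packages and transcribes mitochondrial DNA, 0.48 (adjusted p = 0.403), and PPARGC1A was too low to test. Of 17 citric acid cycle genes 0 were called, 3 were lower at an unadjusted p under 0.05, and the smallest p was that of fumarase, FH (-0.48, adjusted p = 0.224). Of 11 electron carriers, inhibitors and supercomplex factors 0 were called, with a median of -0.04.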

How the data were processed

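Per the file headers, the deposited table gives unnormalised read counts by Ensembl gene ID and TPM values, which the authors scaled to 1000000 in each library. The authors' log2 fold changes and adjusted p-values of single LT4 libraries are in the same deposited table, and the test behind them is not stated in its headers. The submitters' processing notes list the tools HISAT2 2.1.0 and Subread 2.0.1 (featureCounts), beside SAMtools 1.9 and fastp 0.20.0, and the build GRCh38. The labels' protocols name TRIzol extraction and a stranded poly(A) kit. Since no source used here gives the strand setting of the counting, overlapping and antisense genes may share reads. Columns that match no sample analysed here (2 with per-sample values, 3 with comparisons) were left out.

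Groups came from sample titles, and the LT4 libraries were pooled although their column headings name them apart. Symbols matched 60295 of 60623 gene IDs, and exon lengths and overlaps came from GENCODE 29. Counts were fitted on the whole table with edgeR 4.0.16 (R 4.3.3), using its expression filter, TMM scaling, robust quasi-likelihood dispersion and group as the only term, with Benjamini-Hochberg adjustment over 13833 genes. A biological coefficient of variation of 14.6% was estimated. Each standard error is the log2 fold change over the square root of F, and 95% intervals use edgeR's degrees of freedom. TPM served for levels between genes and for summed levels by library, and no test was run on it. Alternatives used DESeq2 1.42.0, limma 3.58.1, other scalings and filters, length and GC trends, equal depth, the replicate block and leaving out each library. The fit was tested on simulated counts with the real library totals, the control means and 200 changed genes. It recovered 3% of genes changed 1.5-fold, 61.5% of those changed 2-fold and 90% of those changed 4-fold. A member that was not called may therefore still have changed by a small amount. Figures were drawn with matplotlib 3.10.9 in Python 3.11.15, from tables made with pandas 2.3.3.

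The members, the other lists and the tests were chosen with earlier results of these data known. Values per library are given for the highest member by TPM, the highest and lowest log2 fold change and the smallest p of each complex, for catalytic or central subunits and for isoform pairs. Members called in single-library comparisons, those with a wide spread within groups, the genes whose promoter is shown, NRF1, TFAM and the genes of other lists called in alternatives were named after their values were seen. The values of 1 member are not reported here, though it is included in the counts and medians.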

Additional observations from a re-analysis of the deposited data

How the results depend on the processing

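In the main comparison 0 members were called, and this held under RLE scaling, library totals, a filter of 50 counts in 2 libraries, DESeq2, limma voom, protein-coding genes only, length and GC trends, equal depth and an adjusted p under 0.01. With no count filter 1 member was called lower, and leaving out 1 library at a time gave 0 to 12 lower and 0 higher. The 12 came without LT4 replicate 3, and 1 without LT4 replicate 1. Leaving out 1 library also moved the median log2 fold change of all members (-0.33 to -0.05), complex I (-0.32 to -0.06), II (-0.17 to 0.23), III (-0.44 to -0.07), IV (-0.33 to 0.20) and V (-0.46 to -0.12), with the extremes from leaving out either LT4 library. The complex II median moved to -0.04 with the length trend removed and -0.05 with the GC trend removed, and that of complex III to -0.09 with the length trend removed. The complex IV median was 0.03 with the length trend removed, against -0.08, a shift below the spread of its control medians (SD 0.157). The cause was not tested.

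Replicate numbers 1 and 3 occur in both groups, but the labels do not say what they mark, and these 2 pairs do not establish a pairing. Across all genes the deviations of same-numbered libraries from their group means had correlations of 0.207 and 0.212. Both values use the same difference between the LT4 libraries, so they are not separate observations. With the replicate number as a block, 427 genes were called against 19, and 1 member, ATP5PO, was called lower. Replicate number 2 occurs only in the controls, so control 2 adds nothing to the LT4 estimate of the block fit. That estimate rests on the 2 same-numbered pairs, and the fit leaves 1 residual degree of freedom. Of the other lists, MT-ND1, MT-ND2, MT-ND6, MT-CYB and the complex IV assembly factor CMC1 were called lower under the block, against 0 in the main comparison. Without a block, mitochondrially encoded subunits called lower numbered 3 with no count filter, where 0.334% of genes were called lower. They numbered 2 with the GC trend removed and 1 at equal depth. The share of all genes called under the GC trend and at equal depth is not given here, so these counts lack a background. Under the block COX7A2 (-0.07), CYC1 (0.02), SDHB (0.10) and SDHD (-0.02) changed sign.

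Named members changed sign as follows. Under RLE scaling, DESeq2, limma voom and protein-coding genes only, UQCRC2 was 0.00 with the opposite sign. Limma voom also turned COX7A2 (-0.04), SDHB (0.00) and SDHD (-0.03). Library totals turned CYC1 (0.03) and SDHB (0.03). No count filter turned ATP5MC1 (-0.03), COX7A2 (-0.01), COX8A (-0.01) and UQCRC2 (-0.04). Equal depth turned COX7A2 (-0.05), COX7B (0.05), SDHB (0.05) and UQCRC2 (-0.06). The GC trend turned ATP5MG (-0.16), COX7A2 (-0.12), COX7A2L (-0.02), CYC1 (0.15), NDUFS7 (0.05), SDHC (-0.05), SDHD (-0.08) and UQCRC2 (-0.04). The length trend turned COX6A1 (0.03), CYC1 (0.11), NDUFS1 (-0.07), SDHB (0.09), SDHC (-0.18) and UQCRC2 (-0.04). Leaving out 1 library, ranges crossed 0 for ATP5MC1 (-0.09 to 0.11), ATP5MG (-0.15 to 0.46), COX4I1 (-0.42 to 0.03), COX5A (-0.33 to 0.08), COX6A1 (-0.42 to 0.23), COX6B1 (-0.38 to 0.00), COX7A2 (-0.33 to 0.36), COX7A2L (-0.14 to 0.32), COX7B (-0.59 to 0.14), COX8A (-0.14 to 0.20), CYC1 (-0.07 to 0.04), SDHA (-0.25 to 0.20), SDHB (-0.10 to 0.10), SDHC (-0.09 to 0.26), SDHD (-0.43 to 0.68) and UQCRC2 (-0.06 to 0.07). The depth of LT4 replicate 3 limits every member at low counts.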
